A study of Mus musculus with 8 samples.

Results

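The core circadian clock genes are the 10 transcripts of the feedback loop that keeps daily time in a cell: Arntl (named Bmal1 in newer annotation), Clock and Npas2 of the positive limb, Per1, Per2, Per3, Cry1 and Cry2 of the negative limb, and the repressor genes Nr1d1 and Nr1d2. They were taken by symbol from the deposited gene counts, and all 10 were found among 56748 gene IDs. Enough counts for the comparison were present for 8 of them, while Arntl and Npas2 fell below the filter on low counts. The RNA came from livers of miR-93 knockout mice and of wild-type mice, with 4 libraries of each genotype. Both genotypes were on a high-fat, high-fructose diet and carry the label MASLD, the fatty liver disease of metabolic dysfunction, at 16 weeks. The series compares liver transcripts with and without the microRNA miR-93. The labels give neither the sex or age of the mice nor the hour at which the livers were taken, nor the tissue in which miR-93 was deleted. The place of each library in the daily cycle is therefore unknown, and neither the amplitude nor the phase of a rhythm was measured. Whether the libraries were made from different animals is not labelled either, and the p-values therefore reflect only library-to-library spread, which may be technical.

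In the loop, ARNTL pairs with CLOCK or its relative NPAS2 and binds E-boxes, short DNA elements in front of the Per, Cry and Nr1d genes. PER and CRY proteins gather in complexes that return to the nucleus and block ARNTL-CLOCK, which closes the loop. The products of Nr1d1 and Nr1d2, REV-ERB-alpha and REV-ERB-beta, form a further loop: they repress Arntl and Npas2 at elements that the activators of the ROR family share. In mouse liver on a light-dark cycle the positive-limb transcripts Arntl and Npas2 are high around the end of the night, Nr1d1 in the day and the Per transcripts around the change from day to night, and feeding time is a strong cue for the liver clock.

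miR-93-5p, the microRNA removed in the knockout, is shown first because the label of the comparison rests on it. In the RefSeq sequence on GRCm38.p6 its seed, bases 2 to 8, is in capitals.
mmu-miR-93-5p: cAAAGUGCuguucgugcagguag
Perfect matches to this seed (GCACTTT in the transcript) were searched in the 3′ UTRs of the 10 genes, taking the longest that GENCODE M21 annotates. Clock had 4, Npas2 had 2 and Cry2 had 1, and the other 7 genes had 0. Among all 21173 genes with an annotated 3′ UTR, 12.2% held a match. The UTR of Clock is also the longest of the 10, at 6831 bases, and a longer sequence has more room for such matches. The 7 sites follow, with the seed match in capitals.
Clock, UTR base 1019: aaaacattttagGCACTTTtttaacattct
Clock, UTR base 3841: gaaaggtaataaGCACTTTattgcaattat
Clock, UTR base 5130: tctgattcatggGCACTTTttatacattcg
Clock, UTR base 5931: agctccagtataGCACTTTcatattcaccc
Npas2, UTR base 527: gaaataacttagGCACTTTcggagtttgtg
Npas2, UTR base 959: ccttttcaggatGCACTTTgcttttttttt
Cry2, UTR base 2075: tgcaggcaagaaGCACTTTacagagttccc
The transcripts with these sites are spread over both limbs, and their values are given below: the log2 fold change was 0.67 for Clock and -0.25 for Cry2, neither of which passed the test, and Npas2 was close to absent. A match is a description of the sequence and not a measured site of binding. The deletion itself could not be checked, because all 8 libraries had 0 counts of Mir93, the gene of this microRNA. Counts of 0 leave room for levels of up to 3 counts, or 0.219 CPM (counts scaled to a common library size) for knockout replicate 3 and 1.69 CPM for wild-type replicate 4. These limits are for counts of the Mir93 gene and set no limit on the level of miR-93-5p itself.

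The promoter windows are shown for Per1 and Per3, which fell in the knockout, with the clock elements in capitals. Windows of 300 bases, from 250 bases before to 50 bases after a RefSeq start site, were searched on both strands for the E-box CACGTG, the D-box TTATGTAA and the REV-ERB/ROR element TAGGTCA. Of 32851 such windows of all genes, 7.15% held the E-box, 0.938% the D-box and 2.61% the REV-ERB/ROR element. Per3 held 2 D-boxes, starting at -205 and -158 from its start site, and Per1 held 1 E-box at -166 in the window shown. A further window of Per1, at another start site, held none of these elements. The D-box is bound by the PAR-bZIP factors DBP, TEF and HLF and by the repressor NFIL3, whose transcripts are given below. No match overlapped another.
Per3, chr4:151044616-151044915, minus strand, GRCm38.p6: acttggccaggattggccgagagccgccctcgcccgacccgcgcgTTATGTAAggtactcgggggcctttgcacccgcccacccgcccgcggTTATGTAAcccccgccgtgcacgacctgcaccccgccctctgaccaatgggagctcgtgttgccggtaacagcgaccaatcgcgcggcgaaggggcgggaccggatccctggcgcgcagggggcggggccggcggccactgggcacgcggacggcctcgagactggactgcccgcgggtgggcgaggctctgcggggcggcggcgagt
Per1, chr11:69098699-69098998, plus strand, GRCm38.p6: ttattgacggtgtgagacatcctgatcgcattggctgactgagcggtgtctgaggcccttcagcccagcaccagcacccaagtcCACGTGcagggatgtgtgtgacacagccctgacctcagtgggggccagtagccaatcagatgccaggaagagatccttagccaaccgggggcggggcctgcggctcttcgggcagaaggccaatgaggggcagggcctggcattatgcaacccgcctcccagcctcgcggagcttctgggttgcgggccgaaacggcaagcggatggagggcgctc
A single E-box stood in the window of Cry1, at -60, and a single REV-ERB/ROR element in a window of Arntl, at 30 bases past the start site. Stretches of 30 bases around them are shown for comparison with the period genes.
Cry1 E-box: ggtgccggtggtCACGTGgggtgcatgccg
Arntl REV-ERB/ROR element: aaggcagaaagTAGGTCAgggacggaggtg
No match was found in the windows of Clock, Npas2, Cry2, Nr1d1 and Nr1d2, which says only that these exact letters are not in these windows. Per2 was not searched.

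The libraries held 5085860 to 10966019 counts, and all 4 knockout libraries were deeper than all 4 wild-type libraries. Transcripts of the mitochondrial genome took 8.08% to 15.0% of the counts in knockout and 25.4% to 77.8% in wild type. Wild-type replicate 4 stood apart, with 1131446 counts outside the mitochondrial genome against 4581983 or more in each other library, so its low-count genes are imprecise and each result is also given without it where the call differs. Levels are CPM after trimmed-mean-of-M-values (TMM) scaling. Differences are log2 fold changes of knockout over wild type ± the standard error from edgeR's quasi-likelihood test, and p-values were adjusted after Benjamini and Hochberg over 13204 tested genes, with a threshold of 0.05. The labelled tissue was checked on 7 hepatocyte markers, which summed to 36560 to 41442 CPM in knockout against 44300 to 57644 CPM in wild type. Of these markers, 2 were called lower in the knockout, Alb and Tat, as were 10.7% of all tested genes.

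The period genes Per1, Per2 and Per3, which belong to the negative limb, all fell in the knockout. They were 3 of the 8 tested members, none of which was called higher, and 10.7% of all tested genes were called lower and 10.4% higher by the same rule. Every knockout library lay below every wild-type library for each of the 3 genes, as for 14.0% of all tested genes. In 16.3% of tested genes the groups were apart in the other direction and in 30.3% in either one. The fall was 2.09-fold for Per3, 1.78-fold for Per2 and 1.60-fold for Per1.

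Per3 (ENSMUSG00000028957, chromosome 4) read 48.9, 38.5, 42.4 and 46.5 CPM in knockout replicates 1 to 4 and 85.1, 103, 85.0 and 95.6 CPM in the wild-type ones. The highest knockout library was thus well below the lowest wild-type library, and wild-type replicate 4 was within the range of its group. The log2 fold change was -1.06 ± 0.13 (edgeR adjusted p = 0.000311). Per2 (ENSMUSG00000055866, chromosome 1) read 89.1, 64.6, 80.3 and 75.0 CPM in knockout against 115, 165, 128 and 142 CPM in wild type. Its libraries did not overlap between the genotypes, and the log2 fold change was -0.83 ± 0.16 (edgeR adjusted p = 0.00386). Per1 (ENSMUSG00000020893, chromosome 11), the period gene that also answers to acute signals such as glucocorticoids, read 81.1, 71.2, 86.3 and 81.5 CPM in knockout. In wild type it read 105, 136, 112 and 163 CPM, the highest value being that of wild-type replicate 4. The log2 fold change was -0.68 ± 0.16 (edgeR adjusted p = 0.0128), and -0.54 (adjusted p = 0.000237) without that library.

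The 3 falls were as large when the mitochondrially encoded genes were left out before scaling, at -1.07 for Per3, -0.83 for Per2 and -0.68 for Per1. TMM scaling already trims genes of extreme ratio or level, so this fit could change little. It leaves the libraries with their different mitochondrial shares, whose part in the falls was not tested. Scaling by library size alone raised the median of all genes by 0.54, and under it Per3 read -0.48, Per2 -0.25 and Per1 -0.04, all below that median and none past the threshold. Leaving out knockout replicate 2 ended the call of Per1 (adjusted p = 0.0565). With all libraries thinned to one depth of counts outside the mitochondrial genome, Per3 was not called (-0.85, adjusted p = 0.122), while Per1 (-0.90, adjusted p = 0.0267) and Per2 (-1.005, adjusted p = 0.0261) were. The ratios within a library given below do not depend on the scaling factors.

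**Figure D1:**
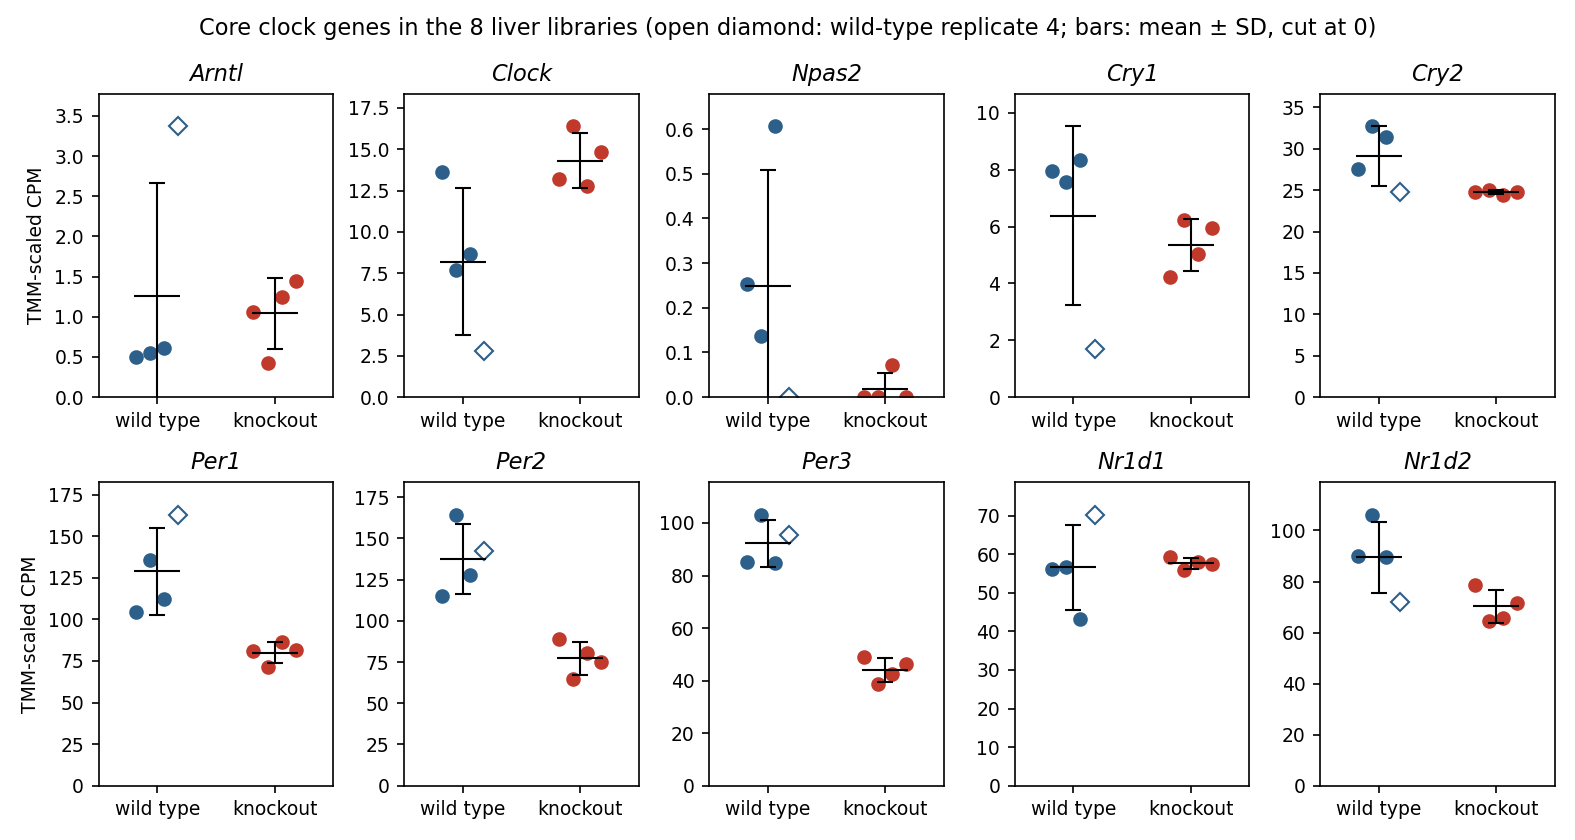
Each panel shows the TMM-scaled CPM (vertical axis, from 0) of a core clock gene in the 4 wild-type and 4 knockout libraries, with the mean and SD in black and wild-type replicate 4 as an open diamond. The knockout libraries lie below all wild-type libraries for Per1, Per2 and Per3, while the other genes overlap, and Arntl and Npas2 stay below 4 CPM throughout.

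The cryptochrome genes, whose products bind and silence ARNTL-CLOCK, did not pass the threshold over all 8 libraries. Cry1 (ENSMUSG00000020038, chromosome 10) read 4.23, 6.23, 5.04 and 5.94 CPM in knockout against 7.96, 7.56, 8.34 and 1.69 CPM in wild type. The 3 wild-type libraries other than replicate 4 were above all knockout libraries, and replicate 4, with 3 counts of Cry1, was below all of them. The log2 fold change was -0.38 ± 0.30 (edgeR adjusted p = 0.397), with a 95% interval of -1.05 to 0.28, and without wild-type replicate 4 Cry1 fell (-0.56 ± 0.20, adjusted p = 0.0317). Cry2 (ENSMUSG00000068742, chromosome 2) was the steadiest of the 10 genes among the knockout libraries, at 24.8, 25.1, 24.4 and 24.8 CPM. Its wild-type libraries read 27.5, 32.7, 31.4 and 24.7 CPM, so that replicate 4 alone reached into the knockout range. The log2 fold change was -0.25 ± 0.12 (edgeR adjusted p = 0.178, interval -0.52 to 0.03), or -0.29 ± 0.11 (adjusted p = 0.0444) without that library. Under scaling by library size alone Cry1 read 0.10 and Cry2 0.29, both below the median of all genes.

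The REV-ERB genes, which belong to the repressive arm that acts on Arntl, did not pass the test over all 8 libraries. Nr1d1 (ENSMUSG00000020889, chromosome 11) read 59.3, 55.9, 57.9 and 57.5 CPM in knockout against 56.2, 56.8, 43.2 and 70.3 CPM in wild type. The narrow knockout range lay inside the wild-type range, and the log2 fold change was 0.04 ± 0.15 (edgeR adjusted p = 0.880). Its 95% interval, -0.29 to 0.37, does not include a change as large as that of any period gene. Exons of Nr1d1 overlap those of Thra, a thyroid hormone receptor gene on the opposite strand, over 263 of 3077 bases (8.55%). No source used here states whether the counting used strand, so reads there cannot be assigned with certainty. Thra itself read 26.6 to 36.7 CPM in knockout against 35.3 to 52.3 CPM in wild type and was not called (-0.30, edgeR adjusted p = 0.214). Nr1d2 (ENSMUSG00000021775, chromosome 14) read 78.8, 64.5, 65.9 and 71.7 CPM in knockout against 89.8, 106, 89.7 and 72.0 CPM in wild type. As with the cryptochromes, wild-type replicate 4 alone overlapped the knockout libraries. The log2 fold change was -0.36 ± 0.15 (edgeR adjusted p = 0.104, interval -0.68 to -0.04), and without that library Nr1d2 fell (-0.43 ± 0.10, adjusted p = 0.00204). It read 0.17 under scaling by library size alone.

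The positive limb was measured well in Clock only. Clock (ENSMUSG00000029238, chromosome 5), the DNA-binding partner of ARNTL, read 13.2, 16.4, 12.8 and 14.8 CPM in knockout against 13.6, 7.70, 8.65 and 2.81 CPM in wild type. Wild-type replicate 1 lay within the knockout range and the other 3 below it, and the value of replicate 4 rests on 5 counts. The log2 fold change was 0.67 ± 0.28 (edgeR adjusted p = 0.107, interval 0.06 to 1.28). Clock passed as higher without wild-type replicate 4 (0.51, adjusted p = 0.0287) or without wild-type replicate 1 (1.01, adjusted p = 0.0241), so the size and the call hang on single libraries.

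Arntl (ENSMUSG00000055116, chromosome 7), the gene without which the loop stops, had 13, 5, 17 and 19 counts in the knockout libraries and 4, 4, 4 and 6 in the wild-type ones. These were 0.421 to 1.45 CPM in knockout against 0.505 to 0.607 CPM in wild-type replicates 1 to 3, while 6 counts in the shallow replicate 4 gave 3.37 CPM. The mean over libraries was 1.04 CPM for knockout and 1.26 CPM for wild type, the wild-type mean resting on that library. Pooled over libraries, the level in knockout was 1.39 times that in wild type, with an exact 95% counting interval of 0.800 to 2.51 that leaves out the spread between libraries. With no filter on low counts the log2 fold change was 0.27 ± 0.65 (edgeR adjusted p = 0.816). Arntl had enough counts for the filter, and was not called, when each wild-type library was left out in turn. The changes were 0.02, 0.06, 0.10 and 0.92 ± 0.56 without wild-type replicates 1 to 4. Their edgeR adjusted p were 0.987, 0.966, 0.941 and 0.217. DESeq2 (0.10) and the fit without the mitochondrial genes (0.29) did not call Arntl either, so no difference was detectable at this depth. Npas2 (ENSMUSG00000026077, chromosome 1) had 0, 0, 1 and 0 counts in knockout and 2, 1, 4 and 0 in wild type. The pooled ratio of 0.0660 has a counting interval of 0.00147 to 0.514, and with no filter the fitted difference did not pass (edgeR adjusted p = 0.169). Per kilobase of exon, Arntl and Npas2 were below every repressor gene in both genotypes, as given below.

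Leaving out wild-type replicate 4 brought 6 members past the threshold as lower (Per1, Per2, Per3, Cry1, Cry2 and Nr1d2) and 1, Clock, as higher. In that fit 17.5% of all tested genes were called lower and 17.8% higher. Limma-voom with quality weights, fitted on all 8 libraries, called 6 members lower and 1 higher. By the same fit 2541 of all 13204 tested genes were lower and 2409 higher. Clock read 0.59 (limma-voom adjusted p = 0.0160), Cry1 -0.52 (0.0382), Cry2 -0.30 (0.0337) and Nr1d2 -0.42 (0.00332). Both fits draw on the same libraries and are no independent evidence of each other. Per1, Per2 and Per3 were called by edgeR with and without wild-type replicate 4.

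**Figure D2:**
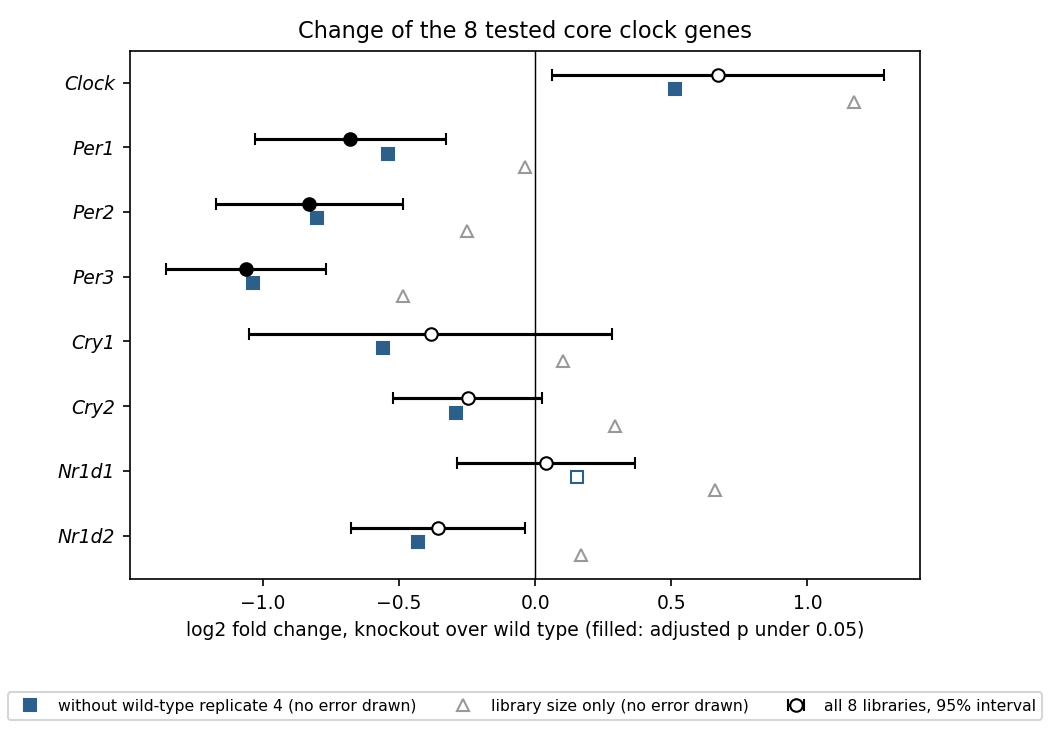
Horizontal axis: log2 fold change, knockout over wild type, for the 8 tested genes, as the edgeR estimate with its 95% interval (circles), without wild-type replicate 4 (squares) and with scaling by library size alone (triangles), filled where the adjusted p was under 0.05. Circles are filled for Per1, Per2 and Per3 and squares for every gene but Nr1d1, and all triangles are open and shifted to the right, as the median of all genes is by 0.54.

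Ratios of 2 transcripts within a library do not depend on the scaling factor, and they are described here without a test because the genes were chosen with earlier results of these data known. The log2 ratio of Per3 to Nr1d1 was -0.28, -0.54, -0.45 and -0.31 in knockout replicates 1 to 4 and 0.60, 0.86, 0.97 and 0.44 in the wild-type ones. Nr1d1 was thus the more abundant by counts in all knockout libraries and Per3 in all wild-type libraries. The ratio of Per1 to Nr1d1 was 0.47 ± 0.10 in knockout and 1.18 ± 0.20 in wild type (log2, SD, n = 4 per group), again without overlap. Clock to Per3 was -1.62 ± 0.28 in knockout and -3.65 ± 0.98 in wild type, the lowest library being wild-type replicate 4 at -4.95. Clock to Nr1d1 overlapped between the genotypes, at -2.01 ± 0.20 in knockout and -2.93 ± 1.11 in wild type. Inside the period family Per2 to Per3 was 0.81 ± 0.11 in knockout and 0.57 ± 0.10 in wild type, means that differ by 0.24. The groups parted narrowly, the nearest libraries being knockout replicate 4 at 0.69 and wild-type replicate 2 at 0.67. Per1 to Per3 overlapped, at 0.86 ± 0.12 in knockout and 0.46 ± 0.21 in wild type. In the thinned libraries Per2 (-1.005) fell by more than Per3 (-0.85), so the order of their falls is not settled. The ratios of Cry1 to Cry2 and of Nr1d1 to Nr1d2 overlapped between the genotypes. Every ratio whose groups parted held a period gene, and the period genes were themselves apart between the genotypes. The share of other gene pairs that part was not computed. Arntl to Nr1d1, a pair that peaks at opposite times in mouse liver, was -5.86 ± 0.73 in knockout and -5.85 ± 1.09 in wild type, from few Arntl counts. The positive limb as a mean of its 3 genes is set by the near-zero counts of Npas2, and its difference from each repressor group overlapped between the genotypes.

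**Figure D3:**
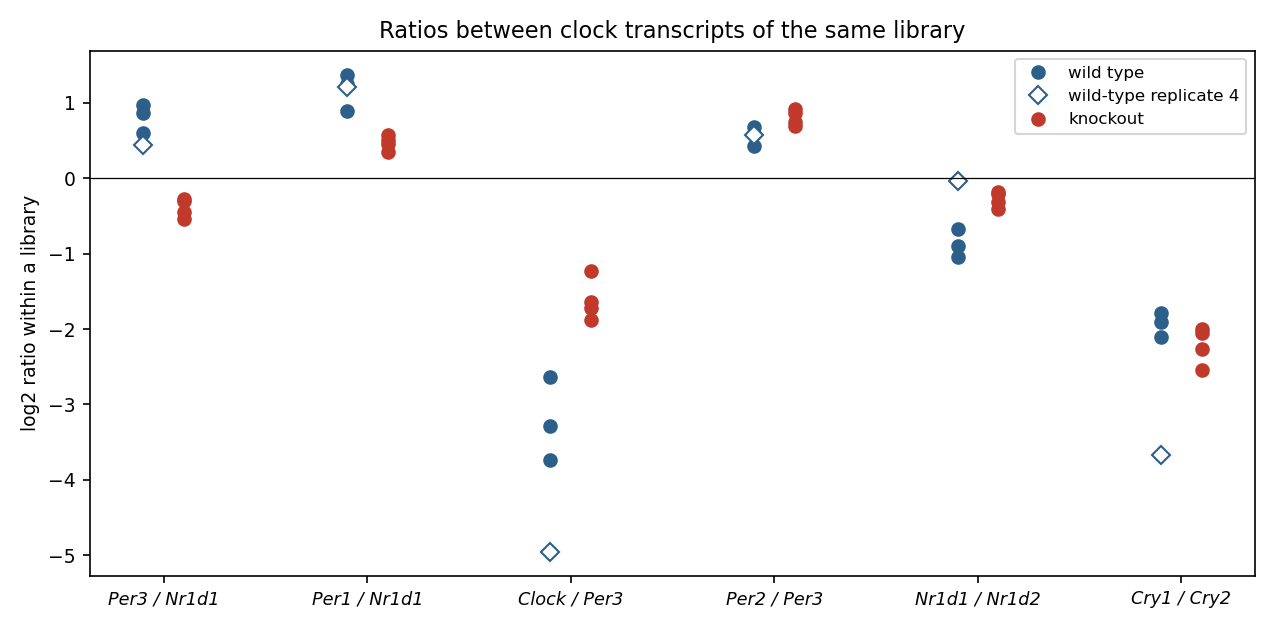
Vertical axis: log2 ratio of 2 clock transcripts in the same library, for wild-type (blue) and knockout (red) libraries, wild-type replicate 4 as an open diamond. The genotypes separate for Per3 to Nr1d1, Per1 to Nr1d1, Clock to Per3 and Per2 to Per3 and overlap for Nr1d1 to Nr1d2 and Cry1 to Cry2. Every ratio that separates holds a period gene.

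Levels were compared between genes as TMM-scaled CPM per kilobase of annotated exon. In wild type Per2 (23.5 ± 3.62) and Per1 (22.9 ± 4.68) were the highest, followed by Nr1d1 (18.4 ± 3.59) and Nr1d2 (16.5 ± 2.59; SD, n = 4), and neighbours in this order did not differ beyond their spread. Per3 (9.60 ± 0.922), Cry2 (4.60 ± 0.576) and Cry1 (1.91 ± 0.943) came next, each below every library of the gene before it. Clock (0.597 ± 0.323) overlapped Cry1 through wild-type replicate 4, Arntl (0.167 ± 0.188) overlapped Clock through the same library, and Npas2 was last (0.0520 ± 0.0542). In knockout Nr1d1 (18.7 ± 0.454) was first, above every library of Per1 (14.2 ± 1.13), Per2 (13.2 ± 1.75) and Nr1d2 (13.0 ± 1.20), which did not differ beyond their spread. Per3 (4.59 ± 0.473), Cry2 (3.92 ± 0.0444), Cry1 (1.61 ± 0.271), Clock (1.04 ± 0.121), Arntl (0.139 ± 0.0589) and Npas2 (0.00381 ± 0.00762) followed in the same order as in wild type. Nr1d1 thus stood clear of the period genes in knockout and overlapped Per1 and Per2 in wild type. With the longest annotated transcript as the length, Per1 stood before Per2 in wild type and Nr1d2 before Per2 in knockout, and the other places were kept.

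Genes that act on the core loop were read from a list of 32 regulators, kinases and cofactors, of which 31 were tested. In the knockout 1 rose, 2 fell and 28 did not pass, a share of 9.68% called against 21.0% of all tested genes, with a median log2 fold change of -0.09 against -0.01. Rora, an activator gene at the element that the REV-ERB proteins bind, read 0.21 ± 0.22 (edgeR adjusted p = 0.537). Ciart, which encodes the repressor CHRONO, fell (-0.90 ± 0.23, edgeR adjusted p = 0.0180). Its highest library was wild-type replicate 4 at 148 CPM, against 68.5 to 86.4 CPM in the other wild-type and 39.7 to 55.9 CPM in the knockout libraries. Without it the change was -0.62, and the call was lost without knockout replicate 2 or 4 (adjusted p = 0.0698 and 0.0582). Ppp1cb, a catalytic subunit of the phosphatase that acts on PER proteins, rose (0.81 ± 0.14, edgeR adjusted p = 0.00246). The E-box repressor genes Bhlhe40 (-0.46 ± 0.17, edgeR adjusted p = 0.0750) and Bhlhe41 (-0.34 ± 0.38, adjusted p = 0.561) did not pass, and Bhlhe40 fell without wild-type replicate 4 (-0.56, adjusted p = 0.000385). Both turned to values just above 0 under scaling by library size alone (0.046 and 0.15, below the median of all genes), where no regulator was called. Without wild-type replicate 4, 4 regulators rose and 7 fell, where 17.8% of all tested genes rose and 17.5% fell. The share of regulators called was then close to that of all tested genes.

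Output genes, through which the loop reaches liver metabolism, were called in both directions. Of 25 tested genes in a list of 26, 8 rose and 9 fell, with a median log2 fold change of -0.13 against -0.01 for all tested genes. Of all tested genes 10.4% rose and 10.7% fell, or 21.0% in all. This list was drawn up with earlier results of these data known, so its share of 68% called is no independent evidence. The D-box activator genes did not share a direction: Dbp fell from 242 ± 14.0 to 127 ± 9.09 CPM (-0.94 ± 0.12, edgeR adjusted p = 0.000471) and Tef fell (-0.61 ± 0.16, adjusted p = 0.0190), while Hlf rose (0.89 ± 0.25, adjusted p = 0.0280). Their repressor Nfil3 rose from 4.11 ± 3.02 to 20.7 ± 1.51 CPM (2.11 ± 0.34, edgeR adjusted p = 0.00167), with 0 counts in wild-type replicate 4. Nfil3 missed the threshold in the thinned libraries (1.40, adjusted p = 0.583). Tef and Hlf both missed the threshold when wild-type replicate 2, or any of knockout replicates 2, 3 and 4, was left out (adjusted p = 0.0562 to 0.0915). Among the other outputs, the fatty acid elongase gene Elovl3 (-2.44 ± 0.16, edgeR adjusted p = 2.33e-06), the uridine phosphorylase gene Upp2 (-1.22) and the nocturnin gene Noct (-0.96) fell. The G-protein regulator gene Rgs16 (1.08) and Por, the electron donor of the cytochromes P450 (0.95), rose. Under scaling by library size alone 3 output genes rose and 1 fell, Elovl3, Rgs16 and Nfil3 among them, and Tef read 0.027.

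**Figure D4:**
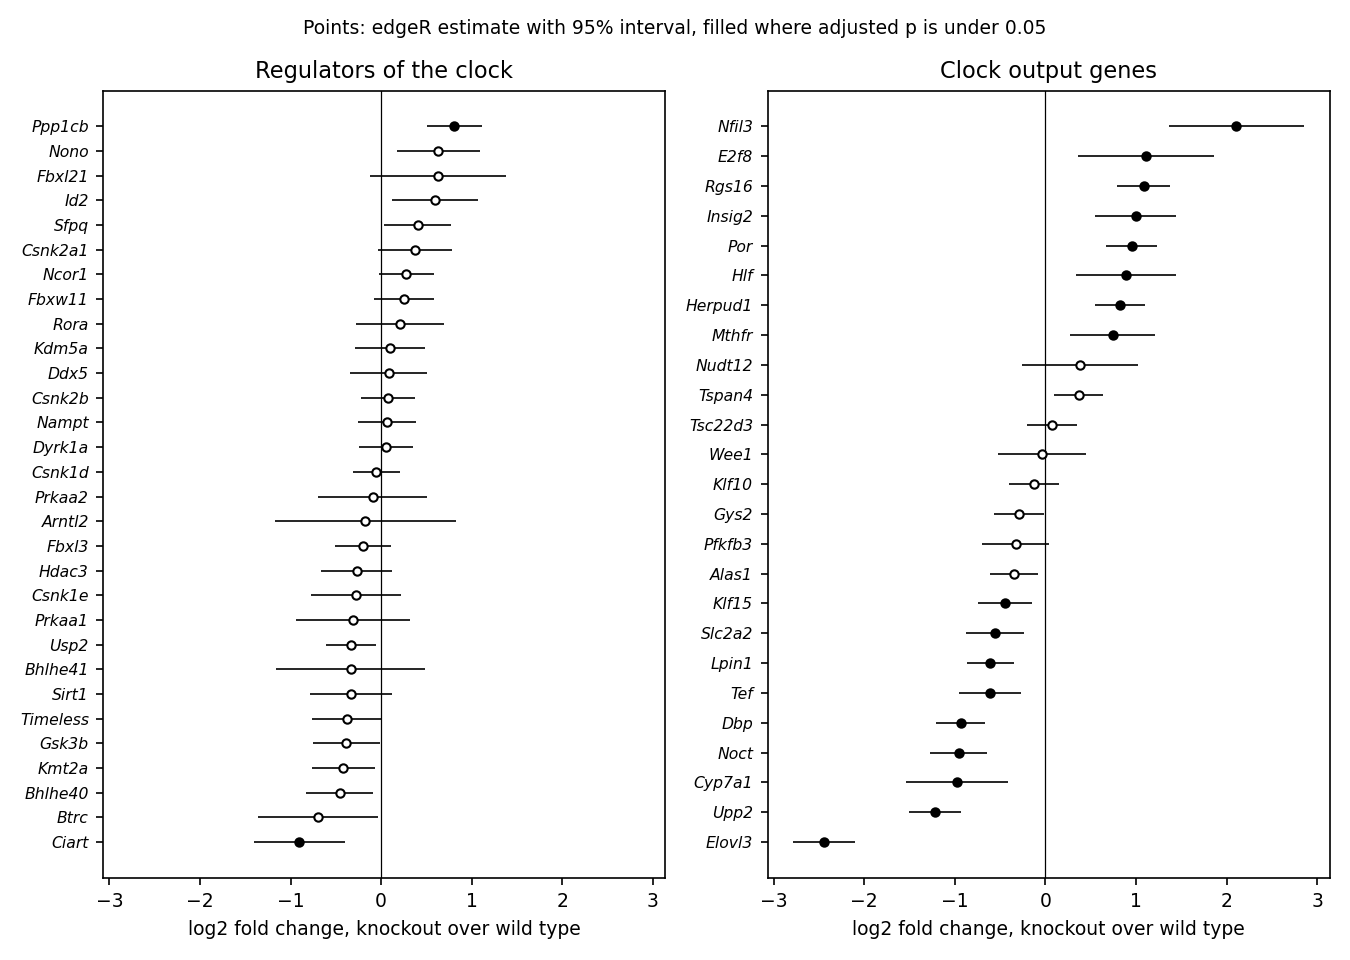
Horizontal axes: log2 fold change, knockout over wild type, of 30 clock regulators (left) and 25 clock output genes (right) with 95% intervals, filled where the adjusted p was under 0.05. Filled points are 2 among the regulators, against 17 on both sides of 0 among the outputs.

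The genes whose log2 CPM was most alike to Per3 over the 8 libraries, among tested genes with a mean of at least 5 CPM, were Dnajc4 (Pearson r = 0.995), Nfe2l2 (0.994), Nolc1 (0.9897) and Zcrb1 (0.9895), all of them lower in knockout. For Nr1d1 they were Mrpl40 (0.957), Ppp2r2a (0.954), Manba (0.953) and Ccdc181 (0.950), none of which was called. The points share depth and genotype, so these values describe a pattern only. Without wild-type replicate 4 the r were 0.989 to 0.996 for the genes alike to Per3 and 0.918 to 0.950 for those alike to Nr1d1. Arntl was below the filter and has no such list.

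Some markers of other liver cells were also called between the genotypes. Their counts are to be read beside the 10.4% of all tested genes called higher and the 10.7% called lower. Of 8 Kupffer cell markers 4 rose and none fell, and their summed level was 140 to 171 CPM in knockout against 45.2 to 200 CPM in wild type. Of 7 sinusoidal endothelial markers 5 rose, with sums of 83.3 to 166 CPM in knockout against 47.5 to 69.2 CPM in wild type. All 6 B cell markers fell, from sums of 33.1 to 67.3 CPM in wild type to 4.68 to 10.4 CPM in knockout, and 3 of 7 stellate cell markers fell (93.2 to 101 CPM in knockout against 86.2 to 213 CPM in wild type). The highest wild-type sum was that of replicate 4 for both the Kupffer cell and the stellate cell markers. In the other wild-type libraries the Kupffer cell sums were below every knockout library, while the stellate cell sums lay around the knockout range. Of 3 tested T and NK cell markers 2 fell, with sums of 4.53 to 5.62 CPM in knockout against 7.31 to 15.4 CPM in wild type. Of 2 tested cholangiocyte markers 1 rose, with sums of 31.4 to 33.0 CPM and 10.1 to 20.3 CPM. The 1 tested neutrophil marker did not pass, at sums of 3.12 to 4.21 CPM and 1.51 to 4.50 CPM, with the defining genes Ly6g and Mpo at 0 counts in all libraries. The part of these cells, of the mitochondrial share and of depth in the clock results was not tested. In bulk liver, fewer cells of a type and less RNA per cell cannot be told apart.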

How the data were processed

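Raw gene counts, with no normalization, were deposited by the authors as a single table of 8 liver libraries and 56748 Ensembl gene IDs. Per the submitters' processing notes, cutadapt 4.2, STAR 2.7.10a and the mm39 build were used; the counting tool and its strand setting are not given in the sources used here. Symbols, exon lengths and 3′ UTRs came from GENCODE M21 and promoters from RefSeq, both on GRCm38, so no coordinate of the counts' own build is given. GENCODE named 52073 IDs.

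Counts were fitted in R 4.3.3 with edgeR 4.0.16 (filterByExpr by genotype, TMM, robust quasi-likelihood test, no covariate, two-sided, Benjamini-Hochberg over 13204 tested of 25937 detected genes). A count of 0.5 was added before log ratios, and 1 CPM before the correlations. Named genes were all 10 members, up to 6 called genes of each pathway list by smallest p, 9 regulators and outputs named whatever their values (1 of them is not reported here), the 4 genes most alike to Per3 and Nr1d1, and the exon-overlapping gene Thra. The other overlapping genes, antisense transcripts at Arntl and Cry2, had at most 15 counts in a library. The members and lists were chosen with earlier results of these data known. Alternatives were DESeq2 1.42.0, limma 3.58.1 voom with quality weights, other scalings and filters, a replicate block, no mitochondrial genes, thinning, other lengths and UTRs, and each library left out in turn.

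On counts simulated for knockout against wild type (12912 genes), the fit was checked: it recovered 56 of 94 true log2 changes of 1 and 83 of 86 of 2, and 7.33% of its 150 calls were false. Counting intervals are exact binomial and, like the limit of 3 counts for a count of 0, cover counting error only. Figures were drawn with matplotlib 3.10.9.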

Additional observations from a re-analysis of the deposited data

Results flagged for a closer look

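In 52 groups of 4 libraries, 5 had a library far from the rest by Dixon's ratio of the gap to the range, above its 95% critical value for 4 samples, where chance gives about 1 group in 20. Wild-type replicate 4 was high for Arntl (ratio 0.965), at 3.37 CPM from 6 counts, and low for Cry1 (0.882), at 1.69 CPM from 3 counts, and it was also low for the log2 ratio of Cry1 to Cry2 (0.830), at -3.67 against -2.10 to -1.78 in the other wild-type libraries. Knockout replicate 3 was apart for Npas2 (ratio 1.00) because it held the only count among the knockout libraries. Knockout replicate 1 was low for the log2 ratio of Per1 to Per2 (0.875), at -0.14 against 0.11 to 0.14 in the other knockout libraries.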

How the results depend on the processing

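The count of members called lower was 3 with DESeq2, with DESeq2 size factors or upper quartile scaling in edgeR, with no filter on low counts and without the mitochondrial genes. It was 6 with limma-voom quality weights, which also called 1 higher, 0 with library size only and 2 after thinning or with the replicate block. Leaving out each library gave 2 to 6 lower and 0 to 1 higher members. Over all tested genes, those called lower were 1408 of 13204 in the main fit and 1731 of 15990 with DESeq2. They were 1331 with DESeq2 size factors and 1359 with upper quartile scaling, of 13204. No filter gave 1150 of 25937, and leaving out the mitochondrial genes 1457 of 13339. With limma-voom they were 2541, with library size only 124 and with the replicate block 624, of 13204, and 253 of 9311 after thinning.

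The ranges over single left-out libraries were -0.76 to -0.54 for Per1, -0.90 to -0.72 for Per2, -1.11 to -0.997 for Per3, -0.56 to -0.27 for Cry1, -0.29 to -0.18 for Cry2, -0.067 to 0.15 for Nr1d1, -0.43 to -0.26 for Nr1d2 and 0.51 to 1.01 for Clock, Nr1d1 turning to -0.067 without wild-type replicate 3. Library size only gave Per1 -0.038, Per2 -0.25, Per3 -0.48, Cry1 0.10, Cry2 0.29, Nr1d2 0.17, Bhlhe40 0.046, Bhlhe41 0.15 and Tef 0.027, against a median of all genes of 0.54. Thinning gave Per1 -0.90, Per2 -1.005, Per3 -0.85, Cry1 0.17, Cry2 -0.90, Nr1d1 -0.16, Nr1d2 -0.67 and Clock 0.48, and only Per1 and Per2 of them were called. Limma-voom with quality weights gave Clock 0.59, Cry1 -0.52, Cry2 -0.30 and Nr1d2 -0.42, all past the threshold.

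Called genes over the whole table, 2777 (1369 higher, 1408 lower), were 4950 (2409 and 2541) with limma-voom, 685 (561 and 124) with library size only, 1267 (643 and 624) with the replicate block, 510 (257 and 253) after thinning and 1489 to 4853 (760 to 2446 and 728 to 2407) with a library left out. The regulators called higher, 1, were 3 with DESeq2 or with no filter, 2 with DESeq2 size factors, 4 with limma-voom and 0 with library size only or thinning. Those called lower, 2, were 8 with limma-voom, 0 with library size only and 1 after thinning, and single left-out libraries gave 1 to 4 higher and 1 to 7 lower. Output genes, 8 higher and 9 lower, were 3 and 1 with library size only, 5 and 4 with the replicate block, 4 and 5 after thinning, and 5 to 9 and 5 to 12 with a library left out. The causes were not tested.

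Deviations from the group means showed no pairing by replicate number. They correlated at -0.26, -0.04, -0.07 and -0.13 for numbers 1 to 4, and no knockout library correlated best with its own number. Deviations from a mean of 4 libraries depend on each other, so this check cannot tell whether the numbers mark a shared batch. With the replicate block Per1 read -0.67 (adjusted p = 0.0630), and Per2 and Per3 stayed called. Depth limits Arntl and Npas2, with at most 19 counts in a library.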
